A study of Mus musculus with 15 samples.

Results

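The Krüppel-like factors described here are 9 mouse genes, Klf2, Klf3, Klf4, Klf6, Klf7, Klf10, Klf11, Klf12 and Klf13, among 22180 genes with a single symbol on the Affymetrix Mouse Gene 2.0 array. Each gene was read from its probe set with exactly 1 gene symbol, the brightest one where a gene had several, which applied to Klf7. The arrays held RNA of mouse LSK cells, a sorted population of lineage-negative cells carrying Sca-1 and Kit that contains the blood stem cells and early progenitors. There were 3 groups of 5 biological replicates: cells cultured for 18 h in MyeloCult medium with extracellular vesicles (EV) shed by AFT stromal cells, cells cultured for 18 h in that medium without EV, and non-cultured cells taken after sorting. The non-cultured group differs from both cultured groups in medium and in time together, and the sources used here give no organ of origin, strain, age, sex, batch or vesicle dose, nor whether animals were pooled.

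Krüppel-like factors are zinc finger transcription factors that bind GC-rich and CACCC-like DNA with closely related fingers, so that members can compete for the same sites. They are usually sorted by the cofactors they bring. Klf2, Klf4, Klf6 and Klf7 belong to the branch that mostly works with histone acetyltransferases, Klf3 and Klf12 recruit the corepressor CtBP, and Klf10, Klf11 and Klf13 recruit the SIN3 corepressor complex. In blood cells Klf2 is known for restraining T cell proliferation and guiding T cell traffic, Klf4 for monocyte differentiation and cell cycle arrest, and Klf3 for opposing the activating members. Several members, Klf2, Klf4, Klf6 and Klf10 among them, are early-response genes that stimuli switch on quickly.

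After 18 h in culture, with or without EV, Klf2, Klf4 and Klf6 were lower than in non-cultured cells and Klf3 was higher. Between the cultures with and without EV no member passed the test, in a comparison that called 0.18% of all genes higher and 0.018% lower. A gene was called where its p from limma, a linear model with a moderated test fitted to all 15 arrays, was under 0.05 after Benjamini-Hochberg adjustment across the 22180 genes. Of the 9 members 1 was called higher and 3 lower with EV against non-cultured cells, where 6.28% of all genes were higher and 7.85% lower. Without EV against non-cultured cells 1 was called higher and 4 lower, where 6.75% and 6.88% of all genes were. The 2 comparisons share the 5 non-cultured arrays, and in bulk RNA a smaller share of cells holding a transcript and less of it per cell cannot be told apart.

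The promoters of the 4 genes that were called in both of those comparisons are shown because 1 of them, that of Klf2, holds a match to the site of the MEF2 factors, which are known activators of Klf2 in other cells, and because all hold the GC box that this family and the related SP factors bind. Sequences are from RefSeq on build GRCm38.p6, the 250 bases before the annotated start, 5′ to 3′ on the strand of the gene. They are chr8:72318812-72319061 on the plus strand for Klf2, chr4:55532476-55532725 on the minus strand for Klf4, chr13:5861239-5861488 on the plus strand for Klf6 and chr5:64803271-64803520 on the plus strand for Klf3. Capitals mark the GC box on either strand and, in Klf2, also the MEF2 match CTAAATTTAG.
Klf2: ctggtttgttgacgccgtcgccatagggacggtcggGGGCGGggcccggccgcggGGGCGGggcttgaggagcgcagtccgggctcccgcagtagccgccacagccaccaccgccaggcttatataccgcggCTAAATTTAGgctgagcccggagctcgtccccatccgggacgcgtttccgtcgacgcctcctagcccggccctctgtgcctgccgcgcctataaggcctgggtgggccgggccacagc
Klf4: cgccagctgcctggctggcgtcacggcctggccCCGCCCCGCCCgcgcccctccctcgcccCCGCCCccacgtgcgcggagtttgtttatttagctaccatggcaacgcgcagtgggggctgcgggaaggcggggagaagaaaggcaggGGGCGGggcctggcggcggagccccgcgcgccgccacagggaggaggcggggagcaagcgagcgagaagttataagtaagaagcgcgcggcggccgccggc
Klf6: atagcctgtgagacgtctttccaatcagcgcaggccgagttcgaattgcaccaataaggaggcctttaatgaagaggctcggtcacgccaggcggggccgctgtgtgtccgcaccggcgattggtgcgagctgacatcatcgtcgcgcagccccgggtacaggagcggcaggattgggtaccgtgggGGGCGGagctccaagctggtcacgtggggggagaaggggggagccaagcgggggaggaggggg
Klf3: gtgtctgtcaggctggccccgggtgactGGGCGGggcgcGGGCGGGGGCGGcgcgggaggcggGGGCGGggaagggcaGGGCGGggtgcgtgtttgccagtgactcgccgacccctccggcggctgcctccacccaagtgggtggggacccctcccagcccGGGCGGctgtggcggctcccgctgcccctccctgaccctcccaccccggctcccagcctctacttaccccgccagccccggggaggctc

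Promoter windows of 300 bases, 250 before and 50 after the start, were found for 8 of the 9 genes, all but Klf10, and searched on both strands. The GC box, GGGCGG, was in 7 of the 8 windows, against 35.7% of all 32851 promoter windows of the mouse table. Klf3 held 6 copies, Klf4 and Klf11 4 each, Klf13 3, Klf2 2, Klf6 and Klf7 1 each, and Klf12 had none, counting copies that overlap one another separately. The CACCC box, CCACCC, was in 4 of the 8 windows, those of Klf2, Klf3, Klf7 and Klf13, against 31.5% of all, and the copy in Klf13 overlaps a GC box. The windows of 7 members were richer in G and C than the median window (52.7%), with 77.7% in Klf11 as the highest value and 45.7% in Klf12 as the lowest.

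The MEF2 match of Klf2 lay at positions -118 to -109 relative to the start, and 3.19% of all windows held one. No member window held the CArG box of SRF (1.63% of all windows), the FOXO site GTAAACA (3.65%), the AP-1 site TGANTCA (7.81%) or the cyclic AMP response element TGACGTCA (1.79%). These are matches of letters in a short window, and whether a factor occupied them was not measured.

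**Figure D1:**
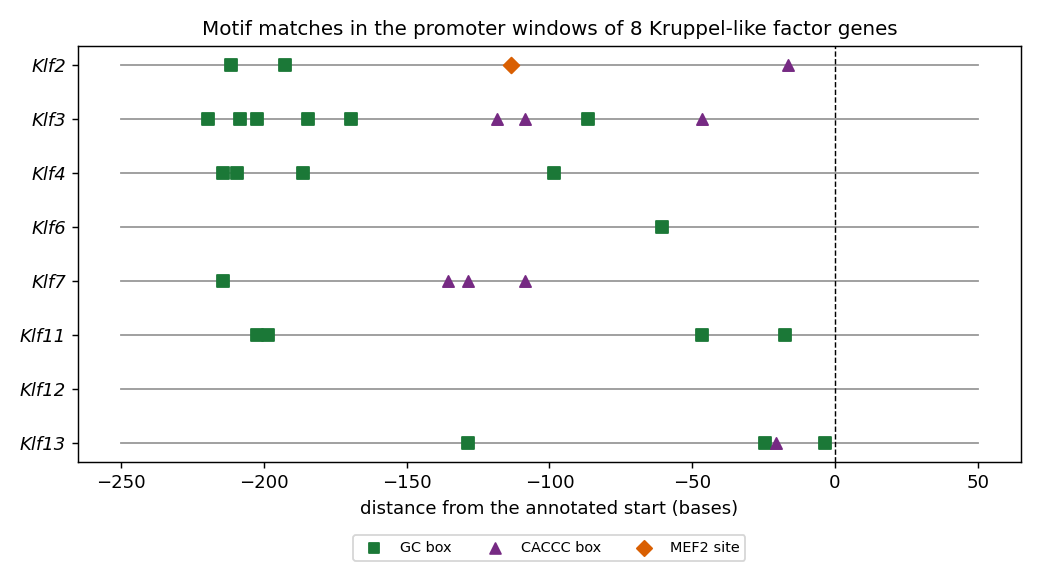
Motif matches along the promoter windows of 8 Krüppel-like factor genes, with distance from the annotated start in bases on the horizontal axis, 1 line per gene and 1 mark per match on either strand. The GC box is in 7 windows, 6 times in Klf3, and the MEF2 site is in that of Klf2 only.

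Klf4, which activates the cell cycle inhibitor gene Cdkn1a and is one of the factors used to reprogram cells to pluripotency, showed a wide separation between cultured and non-cultured cells. Its log2 signal (the base was judged from the range of the values) was 6.44, 5.71, 5.82, 6.38 and 5.33 on the arrays with EV, 6.00, 6.52, 6.42, 5.93 and 5.73 without EV, and 9.09, 9.10, 8.91, 7.94 and 8.23 for non-cultured cells, in the order of replicates 1 to 5. Every cultured array was below every non-cultured one, whereas the cultures with and without EV overlapped. Klf4 fell 6.58-fold with EV against non-cultured cells (log2 -2.72, standard error (SE) 0.26, limma adjusted p = 2.44e-06) and 5.79-fold without EV (log2 -2.53, SE 0.26, adjusted p = 5.48e-06). Ordered by log2 fold change from the lowest, it stood at place 25 of 22180 genes with EV and at place 36 without.

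Klf2 had log2 signals of 5.77, 5.66, 5.72, 5.89 and 5.88 with EV, 5.91, 6.02, 5.48, 6.13 and 6.08 without EV, and 7.51, 7.26, 6.18, 7.53 and 7.52 for non-cultured cells. The cultured arrays were again all below the non-cultured ones, and non-cultured replicate 3 lay far below the rest of its group. Klf2 fell 2.67-fold with EV (log2 -1.42, SE 0.21, limma adjusted p = 0.00025) and 2.42-fold without EV (log2 -1.27, SE 0.21, adjusted p = 0.000638), each against non-cultured cells. Without non-cultured replicate 3 these differences were log2 -1.67 and -1.53.

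Klf6, found in many tissues as an early-response gene, had log2 signals of 7.14, 8.20, 7.69, 7.60 and 8.18 with EV, 7.84, 8.33, 8.71, 7.89 and 8.10 without EV, and 9.17, 9.33, 9.02, 8.87 and 8.66 for non-cultured cells. All arrays with EV were below all non-cultured arrays. Without EV 1 of the 25 pairs of arrays went the other way, replicate 3 without EV at 8.71 against non-cultured replicate 5 at 8.66. Klf6 fell 2.38-fold with EV (log2 -1.25, SE 0.21, limma adjusted p = 0.000589) and 1.78-fold without EV (log2 -0.83, SE 0.21, adjusted p = 0.0124). The difference between the cultures was log2 -0.42 (95% interval -0.86 to 0.03, limma adjusted p = 0.747), so a larger fall with EV was not shown.

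Klf7, the remaining gene of this branch and known from neurons and blood progenitors, passed in no comparison. It ranged from 5.39 to 6.07 with EV, from 5.05 to 5.96 without EV and from 5.01 to 6.10 for non-cultured cells, 3 ranges that overlap almost fully. Its differences from non-cultured cells were log2 0.02 with EV (95% interval -0.43 to 0.47) and -0.19 without EV (-0.64 to 0.26), with limma adjusted p = 0.971 and 0.696. The dimmer probe set of Klf7 (mean 3.87, against 5.68 for the brighter) did not pass either, at log2 0.05 with EV and 0.20 without EV against non-cultured cells.

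**Figure D2:**
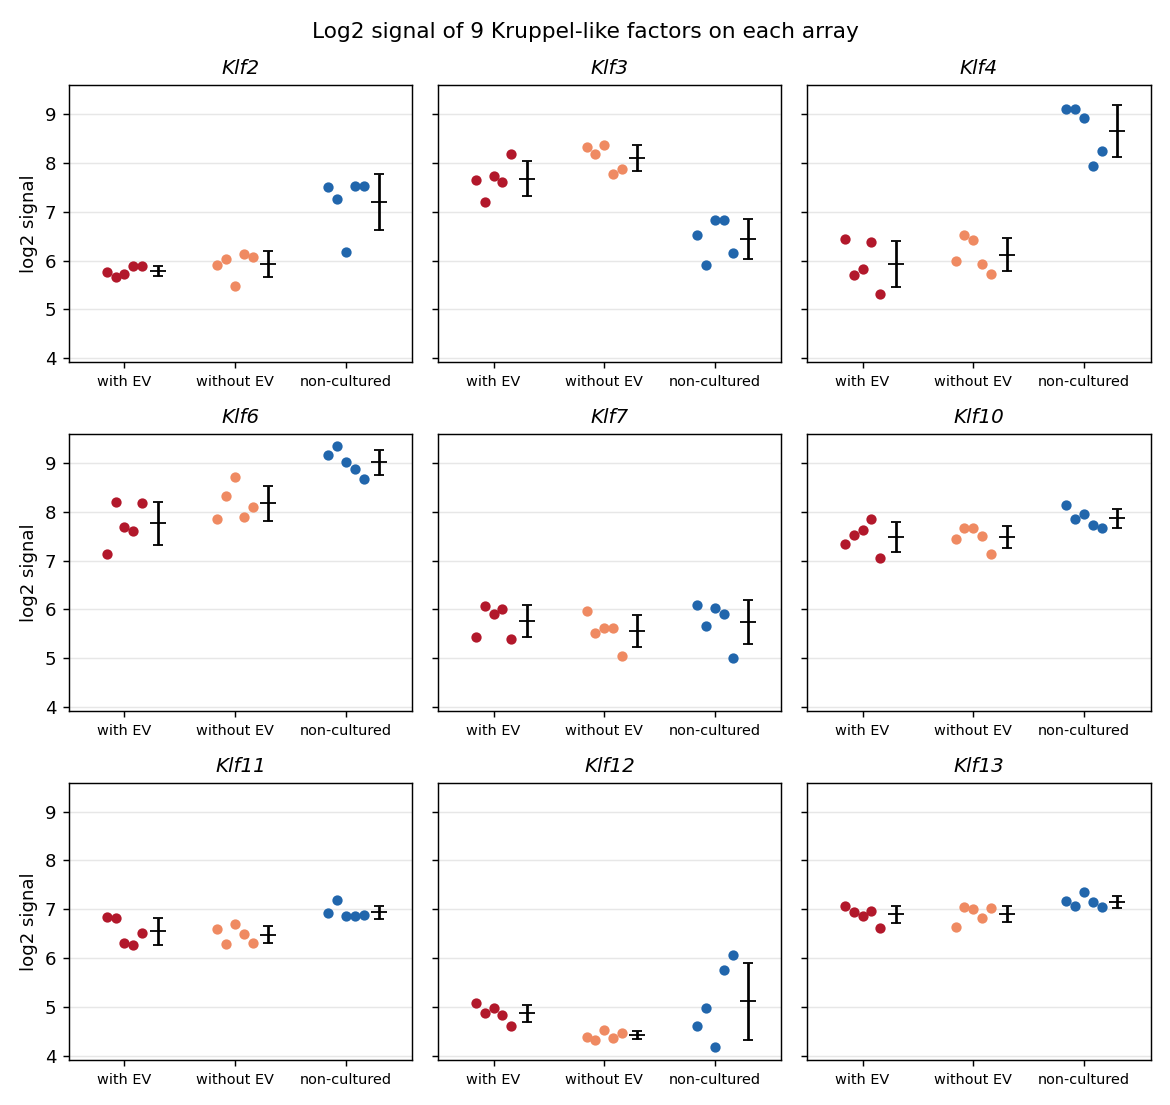
Log2 signal (vertical axis, the same scale in all panels) of the 9 Krüppel-like factors on each of the 15 arrays, with 5 points per group in the order of replicates 1 to 5 and the mean ± SD beside them. Klf2, Klf4 and Klf6 are lower and Klf3 is higher in cultured cells, and the cultured groups lie close together.

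Klf3, the CtBP-binding repressor, went the other way. Its log2 signal was 7.65, 7.20, 7.73, 7.62 and 8.18 with EV, 8.32, 8.18, 8.36, 7.77 and 7.88 without EV, and 6.52, 5.91, 6.82, 6.82 and 6.15 for non-cultured cells. Each cultured array was above each non-cultured one. Klf3 rose 2.35-fold with EV (log2 1.23, SE 0.20, limma adjusted p = 0.000483) and 3.16-fold without EV (log2 1.66, SE 0.20, adjusted p = 2.95e-05). With EV it was lower than without EV in 22 of 25 pairs of arrays, a difference of log2 -0.43 (95% interval -0.85 to 0.00096) with an unadjusted p of 0.0505 and a limma adjusted p = 0.726.

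Klf12, also a CtBP-binding repressor, was dim: its mean log2 signal of 4.81 was close to the medians of the arrays over all probe sets, 4.62 to 4.74. It had 5.07, 4.88, 4.98, 4.84 and 4.60 with EV, 4.40, 4.33, 4.54, 4.38 and 4.46 without EV, and 4.61, 4.98, 4.18, 5.76 and 6.07 for non-cultured cells. All arrays with EV were above all arrays without EV, whereas the non-cultured arrays spread over a range wider than that of both cultured groups together. With EV against without EV the difference was log2 0.46 (SE 0.27, limma adjusted p = 0.775), and adjusted p = 0.247 when the spread was taken from the 2 cultured groups alone. Klf12 was the 1 member of the 9 whose arrays with and without EV did not overlap. The share of all genes that separate in this way was not counted in any comparison, so this separation cannot be weighed. The same holds for members whose cultured and non-cultured arrays did not overlap.

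Against non-cultured cells Klf12 differed by log2 -0.24 with EV (SE 0.27, limma adjusted p = 0.628) and by -0.70 without EV (SE 0.27, adjusted p = 0.103). These values moved with which non-cultured arrays were used. Without non-cultured replicates 4 and 5 the difference with EV was 0.29, of the opposite sign, and that without EV was -0.17. Without non-cultured replicate 3 the difference without EV was -0.93 and passed (adjusted p = 0.0129).

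Klf10 and Klf11, both known as genes that TGF-beta induces early, had smaller estimates, all below 0 against non-cultured cells. Klf11 had 6.84, 6.81, 6.31, 6.26 and 6.52 with EV, 6.59, 6.30, 6.69, 6.50 and 6.31 without EV, and 6.93, 7.18, 6.85, 6.85 and 6.88 for non-cultured cells. All cultured arrays were below all non-cultured arrays, with the nearest pair at 6.84 with EV and 6.85 in non-cultured cells. The fall passed without EV (log2 -0.46, SE 0.13, 1.38-fold, limma adjusted p = 0.0219) and narrowly missed with EV (log2 -0.39, SE 0.13, adjusted p = 0.052), and the cultures differed by 0.07 (95% interval -0.20 to 0.34). Without EV the call was lost in 3 of 15 fits that each left out 1 array, those without non-cultured replicate 2 (adjusted p = 0.0624) and without replicates 2 and 5 of the group without EV (0.0588 each). With EV it was gained in 2, without replicates 1 and 2 of that group (0.0216 and 0.0308).

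Klf10 ranged from 7.05 to 7.85 with EV, from 7.12 to 7.67 without EV and from 7.66 to 8.14 for non-cultured cells. Both cultured ranges overlapped the lower end of the non-cultured one, and the differences of log2 -0.39 with EV and -0.38 without EV (SE 0.15 each) gave limma adjusted p = 0.0992 and 0.104. Klf13, an activator of the chemokine gene Ccl5 in T cells, ranged from 6.61 to 7.07 with EV, from 6.64 to 7.05 without EV and from 7.04 to 7.35 for non-cultured cells. Its differences were -0.26 and -0.25 (SE 0.11 each, limma adjusted p = 0.121 and 0.144). Klf10 was lower in 23 of 25 pairs of arrays both with and without EV, and Klf13 in 23 with EV and in 24 without EV, but neither passed.

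Over the 9 members the median difference was log2 -0.39 with EV and -0.46 without EV against non-cultured cells, beside 0.04 and 0.01 over all genes. Estimates were below 0 for 7 members with EV and for 8 without. Between the cultures the median was -0.01 for the members and 0.01 for all genes, with 0 members called higher and 0 lower. An unadjusted limma p under 0.05 was found for 0 members and for 1513 of all 22180 genes. The intervals of that comparison are wide enough to hold changes of up to 0.86 on the log2 scale downwards, for Klf6, and 1.02 upwards, for Klf12. The narrowest was that of Klf13 (-0.23 to 0.22).

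**Figure D3:**
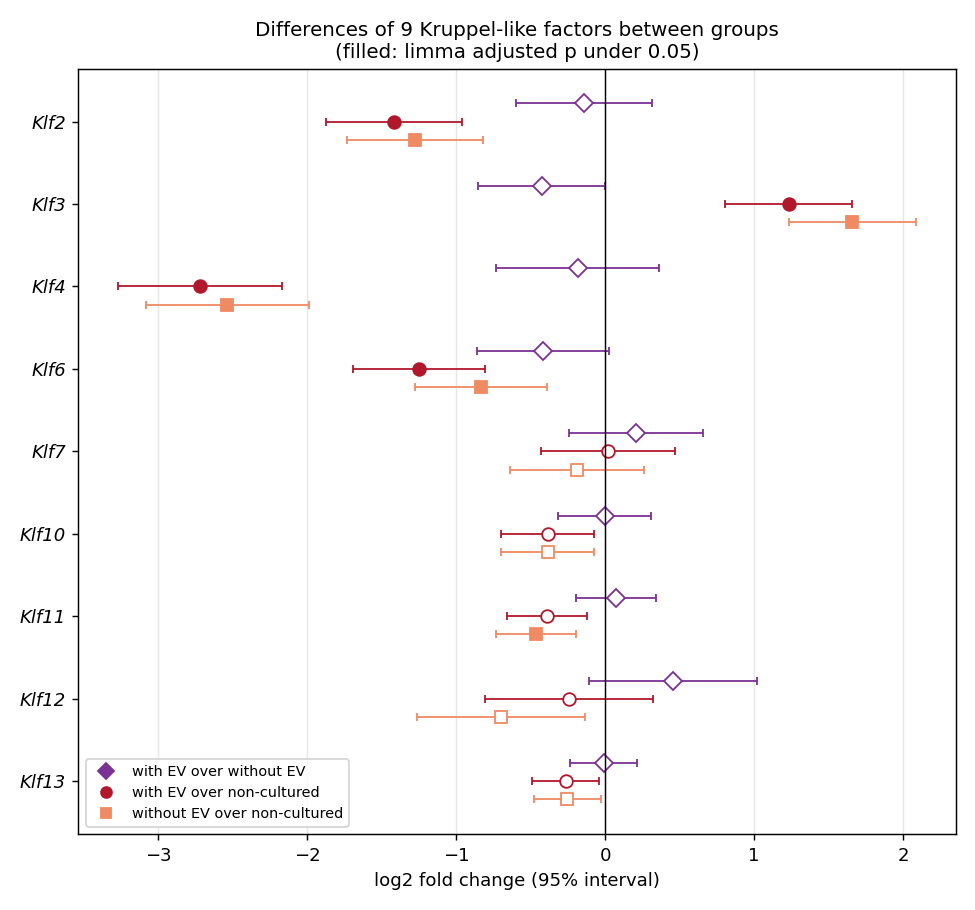
Log2 fold change (horizontal axis) of the 9 Krüppel-like factors in 3 comparisons, with 95% intervals from limma, where filled marks have an adjusted p under 0.05. Klf4 has the lowest values, -2.72 with EV and -2.53 without EV over non-cultured cells, Klf3 is the only member above 0 that passed, and no filled mark stands for with EV over without EV.

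Non-cultured replicates 4 and 5 stood apart in some members and in granulocyte and macrophage markers. They had the lowest Klf4 (7.94 and 8.23) and the highest Klf12 (5.76 and 6.07) of their group. On the same 2 arrays the mean log2 signal of 8 granulocyte and macrophage markers was 6.09 and 6.21, against 6.92 to 7.01 on the other 3. It was 7.40 to 7.72 with EV and 7.51 to 7.81 without EV. Replicates 4 and 5 were also the lowest of each culture, at 7.43 and 7.40 with EV and 7.54 and 7.51 without EV. Of these 8 markers 4 were called higher and 1 lower in either culture against non-cultured cells. S100a8 rose 6.37-fold with EV and 6.73-fold without EV (limma adjusted p = 0.00396 and 0.00322), S100a9 5.36- and 5.38-fold, Csf1r 5.21- and 4.73-fold and Adgre1 1.49- and 1.47-fold, while Mpo fell (log2 -0.58 and -0.66). Itgam, Elane and Ly6g did not pass, and Ly6g was dim in each group (3.00 with EV, 3.11 without EV and 2.99 for non-cultured cells). The part of these markers in the Klf results was not tested. Without the 2 non-cultured arrays 1 member was called higher and 3 lower with EV, and 1 and 4 without EV. Klf4 then stood at log2 -3.10 with EV and -2.91 without EV, and Klf2 at -1.20 and -1.06. No fit left out replicates 4 and 5 of the cultured groups as well.

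The labelled cell type was checked against markers chosen for it. Of 8 LSK genes 7 were measured, all but Ly6a, the gene of Sca-1. Their mean log2 signal was 8.37 to 8.87 with EV, 8.82 to 8.94 without EV and 8.59 to 8.95 for non-cultured cells. Single genes of this list moved both ways against non-cultured cells, with 1 higher and 2 lower with EV and 3 higher and 1 lower without EV. Flt3 rose 1.57- and 1.55-fold and Mecom fell 1.82- and 1.65-fold in the cultures with and without EV. Hlf was called lower with EV (log2 -0.38), and Gata2 and Kit were called higher without EV (0.69 and 0.39). In the other culture these genes went the same way but did not pass. Hlf had -0.28 without EV, and Gata2 and Kit had 0.40 and 0.26 with EV (limma adjusted p = 0.108, 0.257 and 0.196). Between the cultures 0 genes of this list were higher and 0 lower.

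Other lineages also differed in single markers between cultured and non-cultured cells. Of 3 megakaryocyte markers Itga2b rose 1.92-fold with EV and 2.02-fold without EV (limma adjusted p = 0.000265 and 0.000123), and the list averaged 6.73 to 7.73 with EV, 6.99 to 7.90 without EV and 6.36 to 6.97 for non-cultured cells. Of 3 endothelial markers Pecam1 rose 1.79- and 1.68-fold while Cdh5 did not pass. Emcn fell in both, with means of 5.17 with EV, 5.61 without EV and 7.17 for non-cultured cells (limma adjusted p = 0.000389 and 0.00304). Of 6 stromal markers 1, Col1a2, was called higher with EV (log2 0.31, limma adjusted p = 0.0231) and 0 passed without EV. Without EV Col1a2 had log2 0.21 (adjusted p = 0.139), and the cultures differed by 0.10 (adjusted p = 0.843), so a rise particular to EV was not shown. The stromal list averaged 4.56 to 4.80 with EV, 4.52 to 4.65 without EV and 4.44 to 4.68 for non-cultured cells, with group means between 3.02 and 3.11 for Dcn and between 6.10 and 6.24 for Pdgfrb.

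Of 5 T cell, 3 measured B cell and 3 measured erythroid markers 0 passed in any comparison. The T cell list averaged 3.71 to 4.05 over all arrays and the erythroid list 5.09 to 5.59. The B cell list averaged 3.66 to 4.41, within which Cd79b was brighter, at 5.85 with EV, 5.55 without EV and 5.95 for non-cultured cells. The part of these markers in the Klf results was likewise not tested. The array with EV of replicate 1 correlated less with its group (0.964) than any other array with its own (0.974 to 0.982), and without it 4 members, Klf11 in addition, were called lower with EV against non-cultured cells.

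Within groups the members did not vary as one set. After the group means were removed, the correlation over the 15 arrays was 0.70 for Klf4 with Klf10 and 0.70 for Klf7 with Klf10, the highest of 36 pairs. Klf2 was unlike Klf4 in this respect (-0.32) and Klf6 had 0.04 with Klf4. Klf7 and Klf12 gave the lowest value, -0.49. Klf2 varied most in the non-cultured group (SD 0.58, against 0.10 with EV and 0.26 without EV), where replicate 3 was far below the rest. Klf12 did so too (SD 0.79, against 0.18 and 0.08). Within-group values of both genes, here and with their nearest genes below, therefore rest mostly on non-cultured arrays. Replicate 5 was the lowest array of each group for Klf7 and Klf10, and of both cultures for Klf4. These correlations are descriptions, and the members of a pair share their array and its RNA.

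The genes whose signals followed each member most closely were sought among the 8125 named protein-coding genes in the brightest 40% of the genes, by Pearson correlation over all 15 arrays. For members that differ between groups such a value reflects the step between cultured and non-cultured cells, so the correlation within groups is given after it. The value used to pick the genes includes the within-group part, so the second value is raised by the choice. No reference for it over all searched genes was computed. Klf4 was nearest to Odc1, the rate-limiting enzyme of polyamine synthesis (0.976, within groups 0.76), Cdkn1a (0.967, 0.77) and Lsm3 (0.962, 0.63). Klf2 was nearest to the mitochondrial chaperone gene Trap1 (0.959, 0.80), Fam110a (0.934, 0.65) and Igfbp4 (0.932, 0.66). Klf6 was nearest to Suco (0.970, 0.93), the thymidylate kinase gene Dtymk (0.957, 0.85) and the mannosidase gene Man1a (0.954, 0.88). Klf3 was nearest to Ivns1abp (0.945, 0.64), the transcriptional coregulator Cited2 (0.934, 0.58) and Selplg, the ligand of P-selectin (0.932, 0.48).

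Among the members with small differences, Klf13 was nearest to Nrf1, a regulator of mitochondrial genes (0.905, within groups 0.94), Klf10 to the glutaredoxin gene Glrx5 (0.897, 0.85), Klf11 to D8Ertd738e (0.880, 0.76) and Klf12 to the GABA receptor gene Gabbr1 (0.879, 0.89). For Klf7 the nearest gene was Zfp408 (0.766, 0.76). The next nearest genes were Polb and Mars2 for Klf7, Bag6 and Cep85l for Klf10, Sephs1 and Pbdc1 for Klf11, Gng7 and Mid1 for Klf12 and Fbxo21 and Pdhb for Klf13, at 0.706 to 0.893.

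Of 18 further genes of the KLF and SP families 16 were measured. With EV against non-cultured cells 3 fell and 0 rose, and without EV 1 fell and 0 rose. Over all genes 7.85% were called lower and 6.28% higher with EV, and 6.88% and 6.75% without EV. Whether the counts of these 16 genes differ from those shares was not tested. Klf16, a SIN3-recruiting repressor like Klf11, averaged 5.89 ± 0.21 with EV, 5.92 ± 0.24 without EV and 6.72 ± 0.15 for non-cultured cells (SD, n = 5). It fell in both comparisons (log2 -0.84 and -0.80, SE 0.13 each, limma adjusted p = 0.000284 and 0.000406). Klf5 fell with EV (log2 -0.76, SE 0.23, adjusted p = 0.0405) and had -0.60 without EV (adjusted p = 0.112). Sp4 fell with EV (log2 -0.52, SE 0.14, adjusted p = 0.0171), with -0.07 without EV, while its test of EV against without EV gave log2 -0.45 (adjusted p = 0.485).

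The widely expressed activators Sp1 and Sp3 did not pass, at log2 0.02 and 0.22 with EV and 0.10 and 0.12 without EV against non-cultured cells. Nor did the erythroid factor Klf1, with 0.35 and 0.34, or Klf8, a CtBP-binding repressor whose gene Klf3 is known to repress, with -0.34 and -0.12. Klf9, Klf14, Klf15, Klf17, Sp5, Sp6, Sp7, Sp8 and Sp9 also did not pass in any comparison, with estimates between -0.14 and 0.26. The median of the 16 genes was 0.00 with EV and 0.02 without EV.

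**Figure D4:**
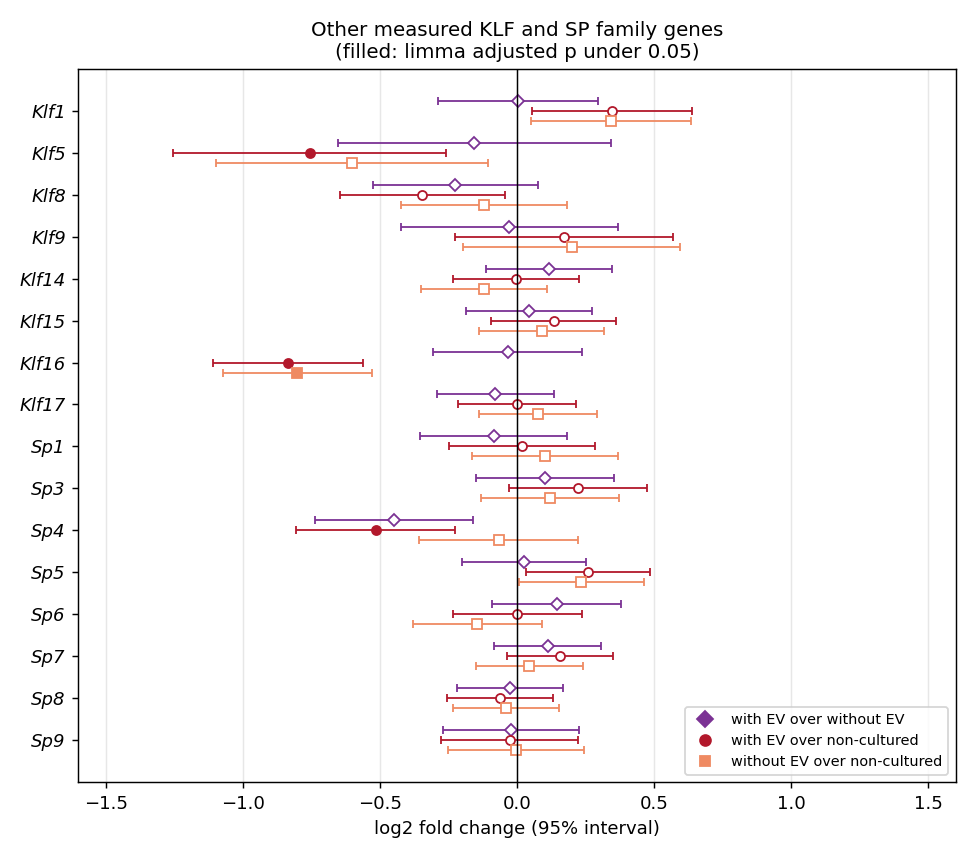
Log2 fold change (horizontal axis) with 95% interval from limma of 16 other KLF and SP family genes in 3 comparisons, where filled marks have an adjusted p under 0.05. Klf16 lies near -0.8 in both comparisons with non-cultured cells, and Klf5 and Sp4 are filled with EV over non-cultured cells only.

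Other genes around the family were taken from lists of known regulators, partners and targets. Beside the counts of each list stand the shares over all genes. These were 6.28% higher and 7.85% lower with EV against non-cultured cells, and 6.75% and 6.88% without EV. The MEF2 factors and the ERK5 kinase cascade that activates them drive Klf2 and Klf4 in endothelial cells. Of 8 genes of this cascade 7 were measured, of which 1 rose and 3 fell with EV against non-cultured cells (median log2 -0.38) and 0 rose and 1 fell without EV (-0.30). Mef2c averaged 8.36 ± 0.27 with EV, 8.66 ± 0.15 without EV and 9.61 ± 0.29 for non-cultured cells (SD, n = 5). It fell by log2 -1.25 with EV and -0.94 without EV (SE 0.15 each, limma adjusted p = 2.59e-05 and 0.000357). With EV, Mef2d fell (log2 -0.38, adjusted p = 0.0259), as did the kinase gene Map3k3 (-0.42, adjusted p = 0.0499), while Mapk7, which encodes ERK5, rose (0.32, adjusted p = 0.0315). Without EV, Mef2d, Map3k3 and Mapk7 had log2 -0.30, -0.32 and 0.28 and did not pass (limma adjusted p = 0.0832, 0.153 and 0.061). The cultures differed by -0.08, -0.10 and 0.04 for these genes, so a change particular to EV was not shown.

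Of 12 TGF-beta and SMAD genes 1 rose and 2 fell with EV against non-cultured cells, and 2 rose and 3 fell without EV. Of all genes 6.28% rose and 7.85% fell with EV, and 6.75% and 6.88% without EV. Whether the list differs from those shares was not tested. Ski, a repressor of SMAD proteins, rose by log2 0.94 with EV and 1.04 without EV (SE 0.12 each, limma adjusted p = 3.63e-05 and 1.22e-05). Smad2, a signal transducer of TGF-beta, fell by log2 -0.61 and -0.67 (SE 0.14 each, adjusted p = 0.0068 and 0.00351), and the coreceptor gene Tgfbr3 by -0.57 and -0.58 (SE 0.12 each). Without EV, Smurf2 also rose (log2 0.44, limma adjusted p = 0.0233) and Smurf1 fell (-0.46, adjusted p = 0.0399). With EV these 2 genes had 0.37 and 0.06 (adjusted p = 0.0559 and 0.85).

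Of 12 genes for cofactors and turnover of Krüppel-like factors 2 fell with EV against non-cultured cells and 1 rose without EV. Of all genes 7.85% fell with EV and 6.75% rose without EV, and whether the list differs from those shares was not tested. The deacetylase genes Hdac1 (log2 -0.85, SE 0.18, limma adjusted p = 0.00377) and Hdac2 (-0.39, SE 0.11, adjusted p = 0.0267) fell with EV, and the acetyltransferase gene Ep300 rose without EV (0.25, SE 0.08, adjusted p = 0.0454). In the other culture Hdac1 and Hdac2 had -0.17 and -0.22 (adjusted p = 0.682 and 0.25) and Ep300 had 0.22 (0.0866). Ep300 differed by -0.04 between the cultures (adjusted p = 0.955). Hdac1 varied widely with EV (SD 0.46, against 0.10 without EV), and the 2 cultures differed by log2 -0.69 (adjusted p = 0.322). The CtBP and SIN3 genes, whose proteins Klf3, Klf12, Klf10, Klf11 and Klf13 bind, did not pass.

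Of 18 genes reported as targets of Krüppel-like factors in various cells 16 were measured, and they moved both ways, with 3 higher and 3 lower with EV and 2 higher and 4 lower without EV. Plaur, the urokinase receptor gene, fell by log2 -2.59 with EV and -2.42 without EV (SE 0.23 each, limma adjusted p = 1.08e-06 and 2.44e-06). Cdkn1a averaged 8.40 ± 0.23 with EV, 8.30 ± 0.25 without EV and 9.70 ± 0.31 for non-cultured cells (SD, n = 5), a fall of -1.31 and -1.40 (SE 0.16 each). S1pr1, the egress receptor that Klf2 activates in T cells, fell with EV (-0.69, SE 0.13, adjusted p = 0.00143) and had -0.20 without EV (adjusted p = 0.414), while the difference between the cultures did not pass (-0.50, adjusted p = 0.308). Thbd, the endothelial thrombomodulin gene, fell without EV (-1.28, SE 0.20, adjusted p = 0.000321) and had -0.61 with EV (adjusted p = 0.0527). So did the cyclin D1 gene Ccnd1 (-1.09 without EV, adjusted p = 0.00117, and -0.45 with EV, adjusted p = 0.164).

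Among the targets that rose, Lgals3, the galectin-3 gene that Klf3 is known to repress, rose by log2 0.70 with EV and 0.56 without EV (SE 0.17 each, limma adjusted p = 0.0112 and 0.0394). Eng, the endoglin gene that Klf6 activates in endothelium, rose by 0.68 and 0.90 (SE 0.13 each), and Foxp3, a regulatory T cell factor gene, rose with EV (0.44, adjusted p = 0.0303) and had 0.37 without EV (adjusted p = 0.0701). In the comparison of the cultures with and without EV none of the genes in these 5 lists passed, at 0 higher and 0 lower in each.

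Of 22 immediate early genes outside the family 21 were measured, and 21 fell with EV and 20 without EV against non-cultured cells, with medians of log2 -2.26 and -2.51. Their mean log2 signal was 6.09 to 6.33 with EV, 6.02 to 6.18 without EV and 8.67 to 8.99 for non-cultured cells. Within the non-cultured group it was highest on replicates 4 and 5 (8.92 and 8.99), the arrays with the lowest Klf4. Between the cultures 0 of these genes were higher and 0 lower. Nr4a1, an orphan nuclear receptor gene, had the smallest p of this list in both comparisons, with a mean of 6.06 with EV, 6.05 without EV and 11.4 for non-cultured cells.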

How the data were processed

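LSK cells of 15 samples were hybridised to 1 array each, with targets made from 500 pg of total RNA per the labels' protocols. The deposited table holds 41345 probe sets in log2 units, as judged from its range of 1.40 to 13.0, and the base is not stated. The submitters' processing notes name MAS5 alone, with no role, and how the authors corrected background and normalized is not given in the sources used here. Values were used as deposited, since array medians lay between 4.62 and 4.74. No file gives detection calls, which leaves dim probe sets hard to judge, and the number of arrays limits the precision. No 2 arrays held identical values.

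Names came from the platform annotation, in which 23521 probe sets have 1 symbol, 1814 several and 16010 have none listed. RefSeq (GRCm38.p6) held the Entrez identifiers of 23328 of them. Differences were tested with limma 3.58.1 in R 4.3.3, two-sided, in a group-means fit with 12 residual degrees of freedom, after a test on simulated data. The members, lists and tests were chosen with earlier results of these data known. Named by rule were all members, all other family genes, up to 4 genes per list and comparison with the smallest adjusted p, and the 3 nearest genes of each member. Not every listed gene that this rule allows was named. Lgals3 and Foxp3 lie outside this rule and were named after their values were seen. Alternatives were other normalizations, filters, spreads, weights and priors, a replicate block, the mean over probe sets, and fits without single arrays or without non-cultured replicates 4 and 5. Deviations of same-numbered arrays correlated weakly (from -0.12 to 0.19), so the numbers were not taken as pairs. In each pair of groups, however, arrays numbered 4 and 5 correlated best with an array numbered 4 or 5 of the other group. What these arrays share was not tested.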

Additional observations from a re-analysis of the deposited data

Results flagged for a closer look

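Of 27 sets of 5 arrays, 9 members in 3 groups, 2 held an array far from the rest of its group by Dixon's test, which chance alone does in about 1 of 20 sets. Klf2 on non-cultured replicate 3 had a log2 signal of 6.18, against 7.26 to 7.53 on the other 4 arrays, a gap of 0.802 of the range of the group. Klf11 on non-cultured replicate 2 had 7.18, against 6.85 to 6.93, a gap of 0.774 of the range. Without the first array Klf2 differed by log2 -1.67 with EV and -1.53 without EV from non-cultured cells. Without the second array Klf11 differed by -0.33 with EV and -0.40 without EV.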

How the results depend on the processing

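Under 9 other settings and 15 fits that each left out 1 array, the members called higher were 1 with EV and 1 without EV against non-cultured cells each time, Klf3. Those called lower numbered 3 to 4 with EV and 3 to 5 without EV. No member was called between the cultures with and without EV under any of these. Klf2, Klf3, Klf4 and Klf6 kept their calls against non-cultured cells in 9 of 9 settings and 15 of 15 fits. Estimates that had not passed changed sign in some settings, such as Klf7 with EV, which lay between -0.17 and 0.07. With EV, Klf11 passed after median centring (adjusted p = 0.0379), without the dimmest 40% of genes (0.0406) and with array weights (0.0261), and Klf10 passed without replicate 4 of that group (0.0414). With the replicate number as a block, the pairing that the labels' numbers would give, the members called lower were 3 with EV and 4 without EV, and in 3 of 15 same-numbered pairs of arrays the first correlated best with the array of its own number in the other group. The cause of these changes was not tested. Over all genes, 40 were higher and 4 lower with EV against without EV, and 0 were lower with the spread from 2 groups alone, 2 after quantile normalization and 0 to 4 without single arrays. Dim probe sets such as that of Klf12 limit what could be detected.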
